A study of Mus musculus with 12 samples.

Results

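The subject is a set of 8 genes of cholesterol synthesis and its control, read in the aorta of elastin-deficient mice given minoxidil and then taken off it. The genes are Hmgcs1, Mvk, Idi1, Fdps, Sqle, Cyp51, Msmo1 and Insig1. They were chosen by symbol, with earlier results of these data known. Each matched 1 gene identifier, and they are 8 of the 50600 genes in the count tables. All 8 passed the filter on low counts that left 24660 genes for testing.

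RNA sequencing was done on aorta taken from the left subclavian artery down to the diaphragm. The off-drug group (4 mice) drank minoxidil for 2 weeks and then drug-free water for 1 week, the on-drug group (4 mice) drank minoxidil for 2 weeks, and the control group (4 mice) drank regular water. Every mouse was C57BL/6J and carried 1 working elastin allele (Elastin +/-, also written Eln+/-), so the controls are elastin-deficient too and no wild-type aorta enters any comparison. All samples carry a labelled age of 3 months, although the drug-free week followed the same drug course and so ended later. Minoxidil lowers blood pressure by opening ATP-sensitive potassium channels in smooth muscle.

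Cells make cholesterol from acetyl-CoA through mevalonate, farnesyl diphosphate, squalene and lanosterol, and the enzymes of this route are transcribed together under the transcription factor SREBP2. When sterols in the endoplasmic reticulum are scarce, the escort protein SCAP carries SREBP2 to the Golgi, where proteases release its active domain. When sterols are plentiful, INSIG proteins hold SCAP back. In the vessel wall the same system sets the supply of membrane sterol in smooth muscle, endothelium and macrophages, beside uptake of LDL and export of sterol through ABC transporters.

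The off-drug libraries held between 54607008 and 101574049 counts, the on-drug libraries between 41524501 and 109423243, and the control libraries between 58825539 and 77423200. Every member had at least 204 counts in every library (Idi1) and at most 6648 (Insig1), so counting error is small beside the spread between mice. Smooth muscle markers, which check the labelled tissue, were all detected, and their summed level was 17520 to 20044 CPM off drug, 18208 to 20897 CPM on drug and 15972 to 18472 CPM in controls. CPM is the read count of a gene scaled to the TMM-adjusted library size. The aorta is a bulk sample, so fewer cells of a type and less RNA per cell cannot be told apart in any value given here.

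The promoters of 4 members are shown first: Cyp51, Msmo1 and Mvk passed the test in at least 1 comparison, and Hmgcs1, which passed in none, is 1 of the 2 members whose window holds the sterol element core. Each window runs from 250 bases before to 50 bases after the RefSeq start (GRCm38.p6), reads 5′ to 3′ on the strand of the gene, and has its matches to TCACNCCA, the core of the sterol regulatory element bound by SREBPs, and to CCAAT, the box bound by the partner factor NF-Y, in capitals, on either strand.
Cyp51 (chr5:4104648-4104947, minus strand): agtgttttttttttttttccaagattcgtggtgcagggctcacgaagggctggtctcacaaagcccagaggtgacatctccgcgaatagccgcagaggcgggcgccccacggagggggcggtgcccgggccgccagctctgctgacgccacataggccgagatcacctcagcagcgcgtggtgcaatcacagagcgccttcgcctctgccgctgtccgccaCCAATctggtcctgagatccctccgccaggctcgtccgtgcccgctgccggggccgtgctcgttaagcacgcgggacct
Msmo1 (chr8:64733529-64733828, minus strand): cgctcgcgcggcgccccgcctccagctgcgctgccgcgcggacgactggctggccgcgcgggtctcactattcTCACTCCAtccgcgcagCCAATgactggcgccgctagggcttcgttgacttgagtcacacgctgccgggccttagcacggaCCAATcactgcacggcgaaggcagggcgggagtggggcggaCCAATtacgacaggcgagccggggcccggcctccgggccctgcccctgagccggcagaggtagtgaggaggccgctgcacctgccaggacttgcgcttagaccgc
Hmgcs1 (chr13:119690101-119690400, plus strand): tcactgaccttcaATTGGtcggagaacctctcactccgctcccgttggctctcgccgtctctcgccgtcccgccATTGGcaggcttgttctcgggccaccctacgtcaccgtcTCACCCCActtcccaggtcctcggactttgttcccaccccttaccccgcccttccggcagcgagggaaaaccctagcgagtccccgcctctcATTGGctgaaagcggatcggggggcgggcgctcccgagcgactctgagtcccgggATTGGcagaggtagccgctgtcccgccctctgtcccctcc
Mvk (chr5:114444019-114444318, plus strand): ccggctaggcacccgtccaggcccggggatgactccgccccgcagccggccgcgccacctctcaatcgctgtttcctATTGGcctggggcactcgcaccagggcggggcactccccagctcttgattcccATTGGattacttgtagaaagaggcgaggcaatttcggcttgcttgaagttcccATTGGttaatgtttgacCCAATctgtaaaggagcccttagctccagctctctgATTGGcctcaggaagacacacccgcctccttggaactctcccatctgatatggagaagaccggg

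RefSeq windows matched 6 of the 8 members. The sterol element core was found in 2 of the 6: Hmgcs1 carries TCACCCCA at positions -137 to -130 from its start, and Msmo1 carries TCACTCCA at positions -177 to -170. Of all 32851 windows, 4.36% hold that core. A CCAAT box lay in 6 of 6 windows, against 37.4% of all windows, and Mvk held the most with 5 matches, followed by Hmgcs1 with 4 and Msmo1 with 3. The GC box GGGCGG, bound by Sp1, was also in 6 of 6, against 35.7% of all windows. The E-box CACGTG, which clock proteins and SREBP1 can bind, was in 1 of 6 (Insig1), against 7.15%. The windows shown are GC-rich, at 64.7% for Cyp51, 70.7% for Msmo1, 65.7% for Hmgcs1 and 58.7% for Mvk, against a median of 52.7% over all windows. Insig1 stood at 71.7%, while Idi1, at 52.3%, lay just below that median. The last letters of TCACNCCA can also begin a CCAAT, but the matches shown do not overlap. A match describes the window and is no evidence of binding, and a window without this exact pattern is no evidence that SREBPs do not bind. Relative to the gene start in the files, and counted along the gene, the RefSeq start lay at 49 bases for Cyp51, 214 for Msmo1, -111 for Hmgcs1 and 0 for Mvk, so each window follows 1 annotated start.

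Per kilobase of exon, Insig1 was the most abundant member in each group, at 15.2 ± 4.52 RPKM off drug, 13.9 ± 0.91 RPKM on drug and 15 ± 1.87 RPKM in controls (SD, n = 4 each). Idi1 was the least abundant, at 2.93 ± 0.48 RPKM off drug, 1.86 ± 0.81 RPKM on drug and 2.62 ± 0.46 RPKM in controls. Among controls the order was Insig1, then Hmgcs1 (8.20 ± 1.44), Cyp51 (7.94 ± 1.24) and Fdps (7.67 ± 0.88), which lay within their spread, then Msmo1 (4.68 ± 0.55), Mvk (4.34 ± 0.61) and Sqle (3.85 ± 0.50), which also did, and then Idi1. On drug Cyp51 stood at 4.44 ± 0.97 RPKM, beside Mvk at 4.25 ± 0.47 and below Fdps at 7.23 ± 0.83. Off drug Cyp51 stood at 7.08 ± 1.21 RPKM, beside Hmgcs1 at 7.95 ± 1.36.

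Counts of 3 members are less certain than the rest. Multi-mapping reads, and those spanning more than 1 gene, were credited to every gene they touched, with no use of strand. Fdps (ENSMUSG00000059743.12, chromosome 3, 89093588 to 89101959) shares 1124 exonic bases with the gene model Gm43738 on the same strand. It has 5 near-identical copies with counts, and Gm43738 is among them. Another, Gm3571, is 98.9% identical over 1062 bases. Idi1 (ENSMUSG00000058258.14, chromosome 13, 8885501 to 8892451) has a copy, Gm13502, identical over 684 bases, with a mean of 141 counts. Cyp51 (ENSMUSG00000001467.5, chromosome 5, 4081145 to 4104746) shares 166 exonic bases with Akap9 on the opposite strand, and reads from there cannot be told apart. Mvk (ENSMUSG00000041939.14, chromosome 5, 114444269 to 114460591), Sqle (ENSMUSG00000022351.14, chromosome 15, 59315077 to 59331192) and Msmo1 (ENSMUSG00000031604.10, chromosome 8, 64718139 to 64733792) had no such copy or overlap. Hmgcs1 (ENSMUSG00000093930.1, chromosome 13, 119690462 to 119708086) and Insig1 (ENSMUSG00000045294.11, chromosome 5, 28071363 to 28078662) each had a short copy with few or no counts.

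The first comparison asks how the members stood after 2 weeks of minoxidil. Cyp51 and Msmo1, enzymes that remove methyl groups from lanosterol and its products, fell on drug. The fitted difference from controls was negative for 8 of 8 members, with a median log2 fold change of -0.38. Over all 24660 genes the median was 0.0049, and 49.1% were negative. As the members were chosen with earlier results of these data known, this contrast is a description and no test. In edgeR's quasi-likelihood test 2 members fell and 0 rose at an adjusted p below 0.05, and over all genes 7.07% were called, 2.94% lower and 4.13% higher. At an unadjusted p below 0.05 there were 4 members, all with lower means on drug. The share of all genes at that unadjusted threshold is not given for any comparison, so such counts, here and below, have no background. DESeq2 called 4 lower and 0 higher, and limma-voom 2 lower and 0 higher. Of all genes DESeq2 called 2845 here, against 1743 by edgeR. The shares of all genes given here and below are those of edgeR and are no background for DESeq2 or limma-voom.

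**Figure D1:**
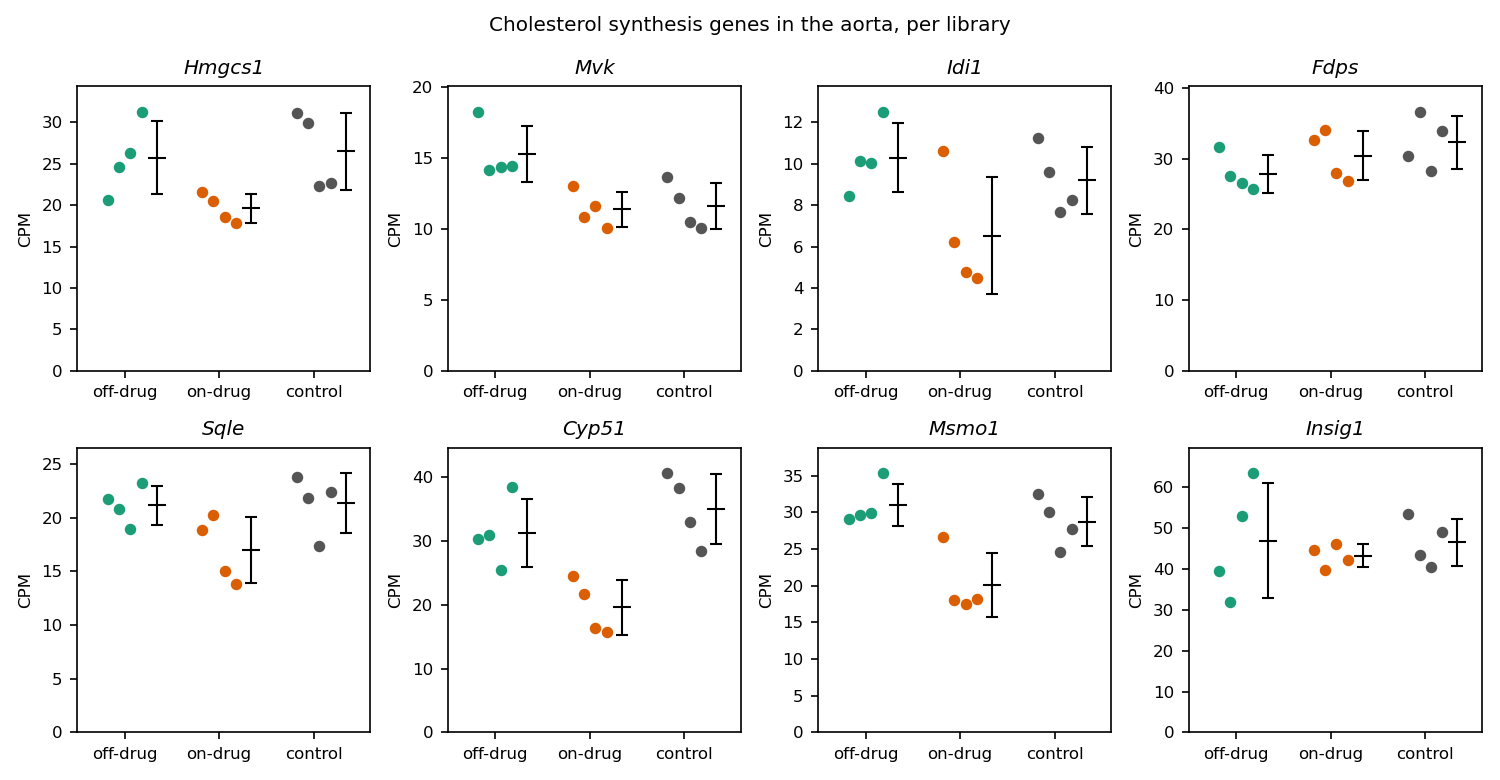
Level of each member gene (y axis, CPM from 0) in every library of the off-drug, on-drug and control groups (x axis); points are libraries, the bar is the mean and the whiskers the SD of 4 libraries. For Cyp51 the on-drug points, 15.7 to 24.6 CPM, lie below all others, and for Mvk the off-drug points, 14.1 to 18.2 CPM, lie above all others.

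Of the early, mevalonate-making steps, Hmgcs1 encodes the cytosolic HMG-CoA synthase that condenses acetyl-CoA units on the way to mevalonate. Hmgcs1 had 20.7, 24.6, 26.3 and 31.2 CPM off drug, 21.5, 20.5, 18.5 and 17.8 CPM on drug, and 31.1, 29.9, 22.4 and 22.6 CPM in controls. All on-drug values lay below all control values, while the off-drug values spread over both ranges. On drug against control the log2 fold change was -0.43 ± 0.13 (SE), and the adjusted p of 0.0625 missed the threshold. Over 21 other settings it ran from 0.00877 to 0.172, and it passed in 9, among them DESeq2 and the fits without control replicate 3 (0.0436) or 4 (0.0361), off-drug replicate 1 (0.0286) or 4 (0.0280), or on-drug replicate 1 (0.0491). Off drug against on drug it was 0.39 ± 0.13 with an adjusted p of 0.0675, which passed in 8 settings, and off drug against control it was -0.042 ± 0.13 with an adjusted p of 0.883.

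Mvk encodes mevalonate kinase, the enzyme that starts the phosphorylation of mevalonate. Mvk had 18.2, 14.1, 14.3 and 14.4 CPM off drug, 13, 10.8, 11.6 and 10.1 CPM on drug, and 13.6, 12.2, 10.5 and 10.1 CPM in controls. Off-drug libraries were above every other library, with replicate 1 the highest, and the on-drug and control values overlapped. Mvk rose off drug against control by a log2 fold change of 0.40 ± 0.11 (edgeR adjusted p = 0.0261, 4 of 4 libraries above the control mean). The call was lost without control replicate 3 (0.0840) or 4 (0.0823) or off-drug replicate 1 (0.110), and p ran from 0.00376 to 0.110 over all settings. It also rose off drug against on drug, by 0.42 ± 0.11 (adjusted p = 0.0169), a call lost without off-drug replicate 1 (0.0672) and without on-drug replicate 4 (0.0606), with p from 0.00133 to 0.0672 over all settings. Between the on-drug and control groups the log2 difference was -0.027 with a 95% interval of -0.25 to 0.19.

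Idi1, the isomerase that makes the allylic building block dimethylallyl diphosphate, had 8.44, 10.1, 10 and 12.5 CPM off drug, 10.6, 6.23, 4.77 and 4.5 CPM on drug, and 11.3, 9.61, 7.65 and 8.26 CPM in controls. On-drug replicate 1 lay with the other groups and the other 3 on-drug libraries lay below every other library. The log2 fold change was -0.48 ± 0.26 on drug against control (adjusted p = 0.309) and 0.64 ± 0.26 off drug against on drug (adjusted p = 0.137). Without on-drug replicate 1 both passed, at -0.84 (0.00353) and 1.00 (0.000395). Off drug against on drug Idi1 also passed under limma-voom, at 0.79 (adjusted p = 0.0230). Over all settings the adjusted p ran from 0.00353 to 0.547 on drug against control and from 0.000395 to 0.295 off drug against on drug.

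Fdps, the farnesyl diphosphate synthase whose product feeds both sterols and protein prenylation, had 31.7, 27.5, 26.5 and 25.7 CPM off drug, 32.7, 34.1, 28.0 and 26.9 CPM on drug, and 30.3, 36.6, 28.3 and 33.9 CPM in controls. Its 3 groups overlapped. The log2 fold change was -0.22 ± 0.09 off drug against control (adjusted p = 0.155), -0.13 ± 0.09 off drug against on drug (0.439) and -0.087 ± 0.094 on drug against control (0.656). It was the 1 member with a lower fitted value off drug than on drug, and its reads are shared with the overlapping model and copies named above.

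Of the later, sterol-specific steps, Sqle encodes squalene epoxidase, which commits squalene to ring closure. Sqle had 21.7, 20.8, 18.9 and 23.2 CPM off drug, 18.8, 20.3, 15 and 13.9 CPM on drug, and 23.8, 21.9, 17.4 and 22.4 CPM in controls. All 4 on-drug values lay below the control mean of 21.3 CPM, but the ranges overlapped. The log2 fold change was -0.33 ± 0.12 on drug against control (adjusted p = 0.107) and 0.32 ± 0.12 off drug against on drug (0.0975). The first passed under DESeq2 (0.0464), without control replicate 3 (0.0475) or on-drug replicate 2 (0.0443), with p from 0.0443 to 0.284 over all settings. The second passed with the replicate block (0.0429) and without on-drug replicate 2 (0.0339), with p from 0.0339 to 0.254.

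Cyp51, the cytochrome P450 that demethylates lanosterol, had 30.3, 31.0, 25.4 and 38.4 CPM off drug, 24.6, 21.7, 16.4 and 15.7 CPM on drug, and 40.6, 38.2, 33.0 and 28.4 CPM in controls. The on-drug range lay below both of the others, which overlapped. Its mean was 19.6 ± 4.27 CPM on drug against 35.0 ± 5.45 CPM in controls (SD, n = 4 each), and the change fitted by edgeR was -43.9%. Cyp51 fell on drug by 0.83 ± 0.17 on the log2 scale (edgeR adjusted p = 0.0158), and the call held in all 21 other settings, with p from 1.91e-06 to 0.0484. Off drug it was higher than on drug, by 0.67 ± 0.17 (adjusted p = 0.0260). That call was lost without a filter (0.0835), with an adipocyte score as covariate (0.0534), without off-drug replicate 1 (0.0512), 2 (0.0552) or 4 (0.0509), and without on-drug replicate 3 (0.0664) or 4 (0.0606), and p ran from 0.000134 to 0.0835. Off drug against control the log2 difference was -0.16 with a 95% interval of -0.50 to 0.17.

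Msmo1, the methylsterol monooxygenase that acts after Cyp51, had 29.2, 29.6, 30.0 and 35.3 CPM off drug, 26.6, 18.1, 17.5 and 18.2 CPM on drug, and 32.5, 30.0, 24.6 and 27.7 CPM in controls. On-drug replicate 1 fell inside the control range, and the other 3 on-drug libraries lay below all libraries of the other groups. Off-drug values were all above the highest on-drug value. Msmo1 fell on drug against control by 0.51 ± 0.13 on the log2 scale (edgeR adjusted p = 0.0269). The call was lost without a filter (0.0685), without control replicate 1 (0.0513) or 2 (0.0587), and without on-drug replicate 2 (0.0644), 3 (0.0751) or 4 (0.0884), with p from 0.000223 to 0.0884. Msmo1 was higher off drug than on drug by 0.62 ± 0.13 (adjusted p = 0.00460), a call that held in all 21 settings with p from 1.63e-05 to 0.0176. Off drug against control the log2 difference was 0.11 with a 95% interval of -0.14 to 0.36.

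Insig1 encodes the membrane protein that anchors SCAP, and is itself a target of SREBPs, so that it closes the feedback loop. Insig1 had 39.5, 31.9, 52.9 and 63.3 CPM off drug, 44.7, 39.6, 46.0 and 42.2 CPM on drug, and 53.3, 43.3, 40.3 and 49.0 CPM in controls. The off-drug libraries were the most spread, with an SD of 14.0 CPM against 2.81 CPM on drug and 5.77 CPM in controls, and they held both its lowest and its highest value. The log2 difference was -0.11 (95% interval -0.47 to 0.26) on drug against control, 0.013 (-0.35 to 0.38) off drug against control and 0.12 (-0.24 to 0.49) off drug against on drug. The on-drug interval spans both signs and also holds the median change of the 8 members, -0.38. The Mvk interval for on drug against control, given above, does not hold that median.

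The second comparison asks where the members stood 1 week after the drug was withdrawn. Mvk rose against control and no member fell. Of the 8 members 4 had a positive and 4 a negative fitted difference, with a median log2 fold change of -0.00051 (-0.0077 over all genes). Of the members 1 was called higher and 0 lower, while 12% of all genes were called, 6.27% higher and 5.77% lower; at an unadjusted p below 0.05 there were 2 members, Mvk and Fdps, and DESeq2 and limma-voom each called 1 higher and 0 lower. The last comparison sets the off-drug group against the on-drug group. Cyp51, Msmo1 and Mvk were higher off drug, and 7 of 8 members had a positive fitted difference, with a median of 0.41 (-0.0011 over all genes). Those 3 calls stand beside 5.44% of all genes called higher, 6.92% called lower and 12.4% called in all. No member was called lower by edgeR, DESeq2 or limma-voom, and 6 had an unadjusted p below 0.05, each with a higher mean off drug. Each pair of these comparisons shares a group of 4 libraries (the first and second share the controls), so their values are not independent of each other.

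**Figure D2:**
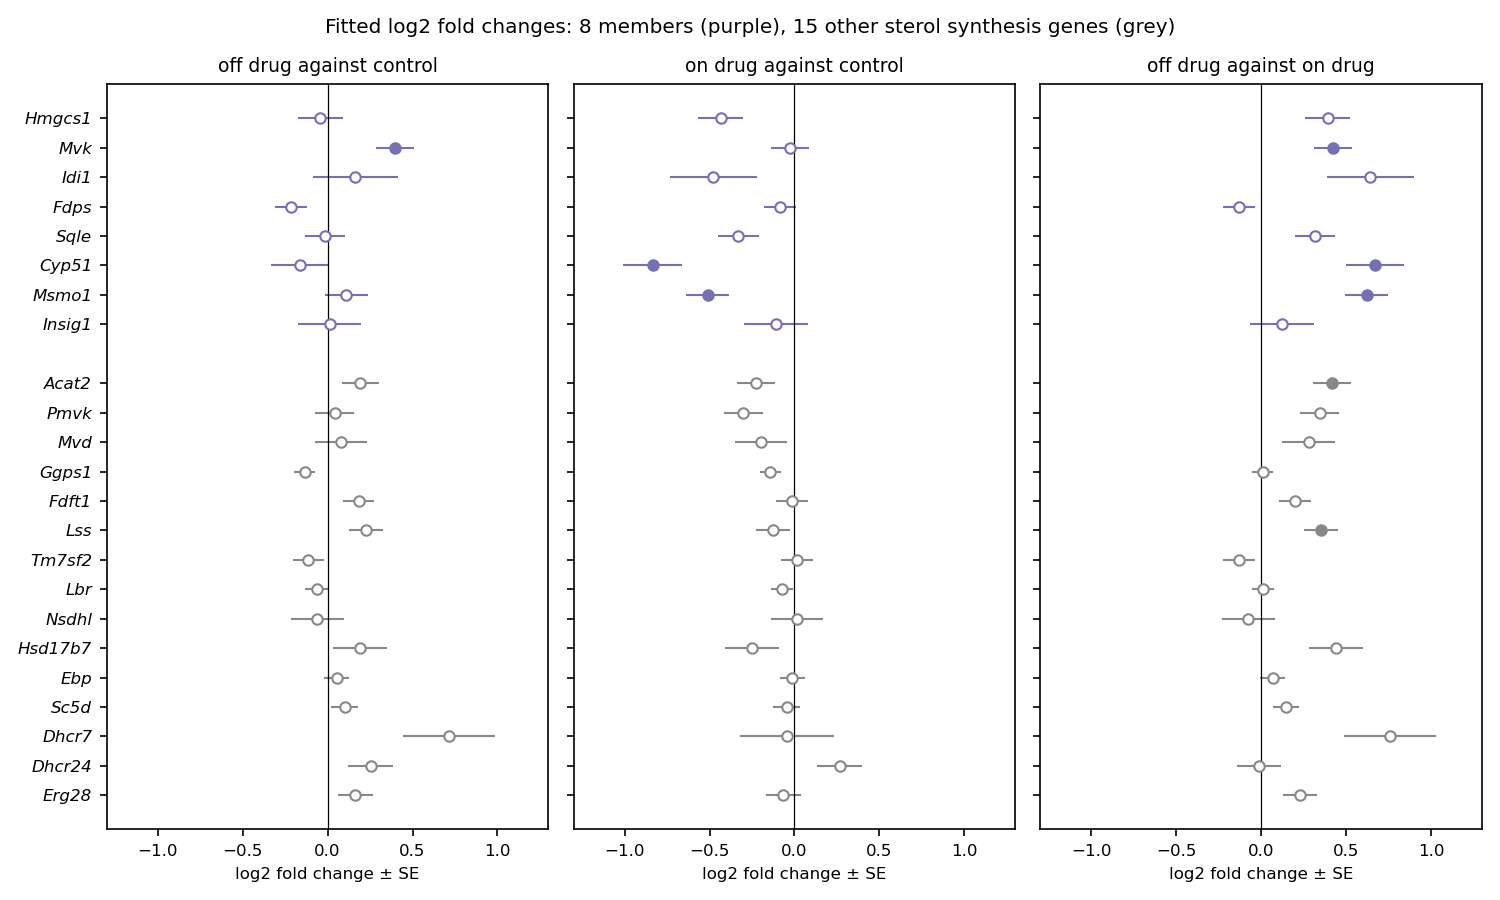
Fitted log2 fold changes with SE (x axis) for the 8 members (purple) and 15 other sterol synthesis genes (grey), 1 gene a line, in 3 panels from left to right, for off drug against control, on drug against control, and then off drug against on drug. Filled points passed an adjusted p of 0.05 in edgeR; Cyp51 and Msmo1 are filled to the left of 0 in the middle panel and to the right in the last, and Mvk to the right in the first and last.

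Within the groups single libraries stood high or low for many members at a time. Off-drug replicate 4 held the highest off-drug value of 6 of 8 members, on-drug replicate 1 the highest on-drug value of 5, and control replicate 1 the highest control value of 7. On-drug replicate 4 was lowest in its group for 6 members and control replicate 3 for 6. Off-drug replicate 4 and on-drug replicate 1 were also the libraries with the most counts in their groups, at 101574049 and 109423243; control replicate 1, at 63879694 counts, was not. The part of depth in these values was not tested. Summed over the members, the level was 199.6, 189.6, 204 and 244 CPM off drug, 192, 171, 158 and 149 CPM on drug, and 236, 222, 184 and 202 CPM in controls. The on-drug and control ranges thus overlapped in the sum, between control replicate 3 and on-drug replicate 1.

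The same route was also read from 15 further enzyme genes, all tested. On drug against control edgeR, DESeq2 and limma-voom each called 0 of the 15 in either direction, 2 had an unadjusted p below 0.05 in edgeR, and 12 of 15 had a negative fitted difference, with a median of -0.066.

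Off drug against on drug 12 of the 15 had a positive fitted difference, and the median was 0.20. While edgeR called 12.4% of all genes, 5.44% higher and 6.92% lower, 2 of the 15 rose and 0 fell. These were Acat2, the cytosolic thiolase that makes acetoacetyl-CoA, at 0.42 ± 0.11 (adjusted p = 0.0190), and Lss, the synthase that closes the lanosterol ring, at 0.35 ± 0.10 (0.0259). Acat2 had 29.8, 25.4, 35.6 and 35.5 CPM off drug, 24.4, 21, 23.6 and 25.5 CPM on drug, and 31.0, 26.3, 23.3 and 30 CPM in controls, and its groups overlapped. Lss had 16.7, 17.9, 17.5 and 16.9 CPM off drug, 13.8, 14.4, 12.5 and 13.4 CPM on drug, and 18.1, 15.7, 12.6 and 12.7 CPM in controls, so that only the off-drug and on-drug ranges are apart. The Acat2 call was lost without off-drug replicate 3, off-drug replicate 4 or on-drug replicate 2 (0.0551 to 0.0591), and the Lss call without off-drug replicate 2 or 3 or on-drug replicate 3 or 4 (0.0537 to 0.0748). DESeq2 and limma-voom each called 5 higher. Off drug against control edgeR and limma-voom called 0 of the 15 in either direction and DESeq2 1 higher, 3 had an unadjusted p below 0.05 in edgeR, and the median was 0.0998. Summed over the 15 genes the level was 290.5 to 302 CPM off drug, 259 to 282 CPM on drug and 268 to 299 CPM in controls.

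**Figure D3:**
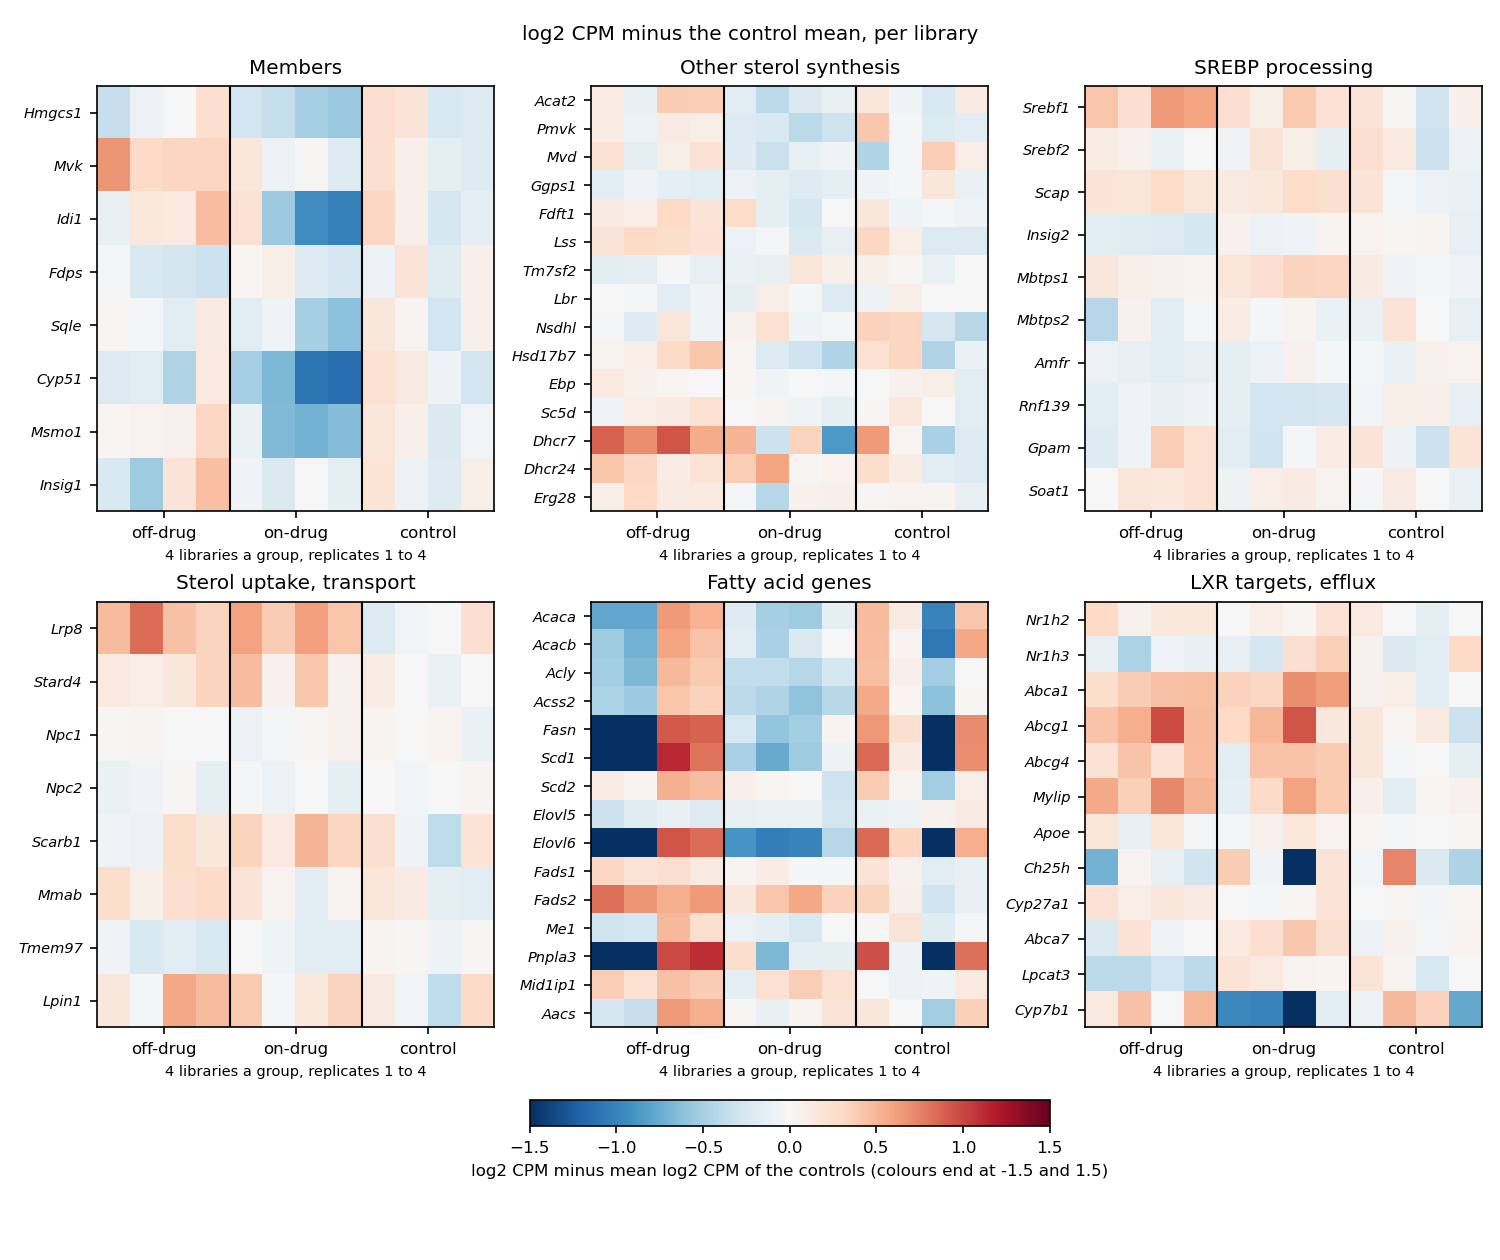
log2 CPM minus the mean log2 CPM of the controls (colour, ending at -1.5 and 1.5) for each gene of 6 lists (y axis) in each library (x axis, 4 libraries a group in the order off-drug, on-drug, control). Cyp51, Msmo1 and Idi1 are blue in on-drug replicates 2 to 4, and Fasn and Scd1 are dark blue in off-drug replicates 1 and 2 and control replicate 3.

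Of the genes that sense sterol and process SREBPs, 10 of 11 listed genes were tested, and the means of the SREBP2 transcript were close. Srebf2, which encodes SREBP2, had 36.6 ± 2.24 CPM off drug, 36.6 ± 3.87 CPM on drug and 36.4 ± 6.12 CPM in controls (SD, n = 4 each), and the 95% intervals of its log2 differences were -0.20 to 0.21 off drug against control, -0.20 to 0.20 off drug against on drug, and -0.20 to 0.21 on drug against control. Srebf1, which encodes the fatty acid regulator SREBP1, had 64.6, 57.3, 75.2 and 72.7 CPM off drug, 57.5, 51.4, 63.6 and 56.0 CPM on drug, and 55.2, 49.1, 39.4 and 51.1 CPM in controls. All off-drug values lay above all control values, and the on-drug values lay between and overlapped both. Srebf1 rose off drug against control by 0.47 ± 0.10 (adjusted p = 0.00759), a call that held in all 21 settings with p from 6.78e-05 to 0.0232.

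Mbtps1, the site-1 protease that makes the first cut in SREBPs, rose on drug against control by 0.27 ± 0.06 (edgeR adjusted p = 0.00913), with 139, 145, 154 and 153 CPM on drug against 133, 118, 121 and 118 CPM in controls, and the call held in all 21 settings (p from 0.000627 to 0.0485). Rnf139, a sterol-sensing ubiquitin ligase, fell on drug by 0.24 ± 0.06 on the log2 scale (0.0215). That call was lost without control replicate 2 or 3 or on-drug replicate 2, 3 or 4 (p from 0.0544 to 0.0641) and without composition factors (0.113). Insig2, the second INSIG protein, had 35.9, 35.4, 34.8 and 33.5 CPM off drug, 42.0, 37.7, 38.5 and 41.2 CPM on drug, and 41.8, 40.8, 41.4 and 36.8 CPM in controls. Its off-drug values were the lowest of the 3 groups without overlap. It fell off drug by 0.20 ± 0.06 against control (0.0351) and by 0.19 ± 0.06 against on drug (0.0450), but the first call was lost with any of 7 libraries left out and the second with any of 10 (p up to 0.0988 and 0.138). Both were also lost in 3 of the 9 other settings, with the highest p, 0.228 and 0.164, without composition factors.

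Of 9 genes of sterol uptake and transport 8 were tested. Off drug against control edgeR called 1 of the 8 higher and 0 lower, where it called 12% of all genes. Lrp8, a lipoprotein receptor gene, had 2.6, 3.32, 2.54 and 2.34 CPM off drug, 2.84, 2.43, 2.85 and 2.49 CPM on drug, and 1.62, 1.82, 1.85 and 2.22 CPM in controls. Both minoxidil groups lay above all controls and overlapped each other. Lrp8 rose off drug against control by 0.52 ± 0.16 (edgeR adjusted p = 0.0373), a call lost with any of 6 libraries left out (p up to 0.135) and in 5 other settings, among them limma-voom and no filter (0.0578 to 0.0717). On drug against control the log2 fold change was 0.50 ± 0.16, and the adjusted p of 0.0654 missed the threshold. Of the 8 genes edgeR and limma-voom called 0 and DESeq2 1 higher on drug against control, where 2 had an unadjusted p below 0.05 in edgeR. Off drug against on drug edgeR, DESeq2 and limma-voom called 0 of the 8, and 0 had an unadjusted p below 0.05.

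Sterol export was read from 12 genes of the LXR receptors, which sense oxysterols, and their targets. Abca1, the transporter that loads cholesterol onto apolipoprotein A-I, had 80.7, 87.6, 91.4 and 92.1 CPM off drug, 85.7, 83.5, 109 and 104 CPM on drug, and 70.0, 71.9, 60.3 and 67.2 CPM in controls. Both minoxidil groups lay above all controls and overlapped each other. Abca1 rose by 0.39 ± 0.08 off drug (edgeR adjusted p = 0.00512) and by 0.50 ± 0.08 on drug (0.00178) against control, and both calls held in all 21 settings, with p up to 0.0204 and 0.00900. No other of the 12 genes passed on drug against control in edgeR, while DESeq2 called 2 higher and limma-voom 1.

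Off drug against control 3 of the 12 rose and 1 fell, while over all genes 6.27% were called higher and 5.77% lower. Beside Abca1 the rises were Mylip, a ubiquitin ligase gene induced by LXR, at 0.54 ± 0.13 (edgeR adjusted p = 0.0111), and the sterol transporter Abcg1 at 0.61 ± 0.17 (0.0249). The Abcg1 call was lost without control replicate 2 or 4 or off-drug replicate 3 (0.0540 to 0.101). Lpcat3, a phospholipid-remodelling acyltransferase, fell off drug by 0.38 ± 0.09 against control (0.0116) and by 0.49 ± 0.09 against on drug (0.00160), and the Mylip and Lpcat3 calls held in all 21 settings. Cyp7b1, an oxysterol hydroxylase, was higher off drug than on drug by 1.1 ± 0.32 (0.0304) at under 1 CPM in every library, a call lost with any of 5 libraries left out (p up to 0.0883) and with an adipocyte score as covariate (0.0664).

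Of 15 fatty acid genes, the targets of SREBP1, 11 had a negative fitted difference on drug against control, with a median of -0.33, and 14 a positive one off drug against on drug, with a median of 0.32, against -0.38 and 0.41 for the members. Off drug against control the median was -0.049, with 9 of 15 negative. Single libraries differed widely. Fasn, fatty acid synthase, had 114, 117, 660 and 642 CPM off drug, 296, 232, 246 and 359 CPM on drug, and 549, 410, 115 and 567 CPM in controls. Off-drug replicates 1 and 2 and control replicate 3 were low. The same libraries had the lowest summed adipocyte markers (12 genes, all detected), with 153, 128, 655 and 554 CPM off drug, 648, 368, 699 and 630 CPM on drug, and 569, 448, 228 and 847 CPM in controls. Of these markers edgeR and limma-voom called 0 in any comparison, and DESeq2 called 1, lower off drug than on drug. At an unadjusted p below 0.05 in edgeR there was 1 marker in each off-drug comparison and 0 on drug against control. With a score of these markers as covariate the Cyp51 fall on drug stood at an adjusted p of 0.0244 and Msmo1 at 0.0209, and Hmgcs1 passed too (0.0382). Off drug against on drug the covariate ended the Cyp51 call (0.0534), Hmgcs1 passed (0.0329), and the Insig1 difference was 0.27 with an adjusted p of 0.0577, against 0.12 without the covariate. Of the 15 fatty acid genes edgeR called 2 higher and 0 lower off drug against control, where it called 12% of all genes. In that comparison 4 of the 15 had an unadjusted p below 0.05 in edgeR. There DESeq2 called 3 higher and 1 lower, and limma-voom called 3 higher and 0 lower. The genes called by edgeR were Fads2, a fatty acid desaturase, at 0.65 ± 0.12 (0.00135, held in all 21 settings) and Mid1ip1, an activator of acetyl-CoA carboxylase, at 0.35 ± 0.09 (0.0150). The Mid1ip1 call was lost without control replicate 2 or 3 or off-drug replicate 3 (0.0516 to 0.0537). In the other comparisons edgeR called 0 of the 15 and 2 had an unadjusted p below 0.05, while DESeq2 and limma-voom each called 1 gene, which was higher on drug than in controls.

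**Figure D4:**
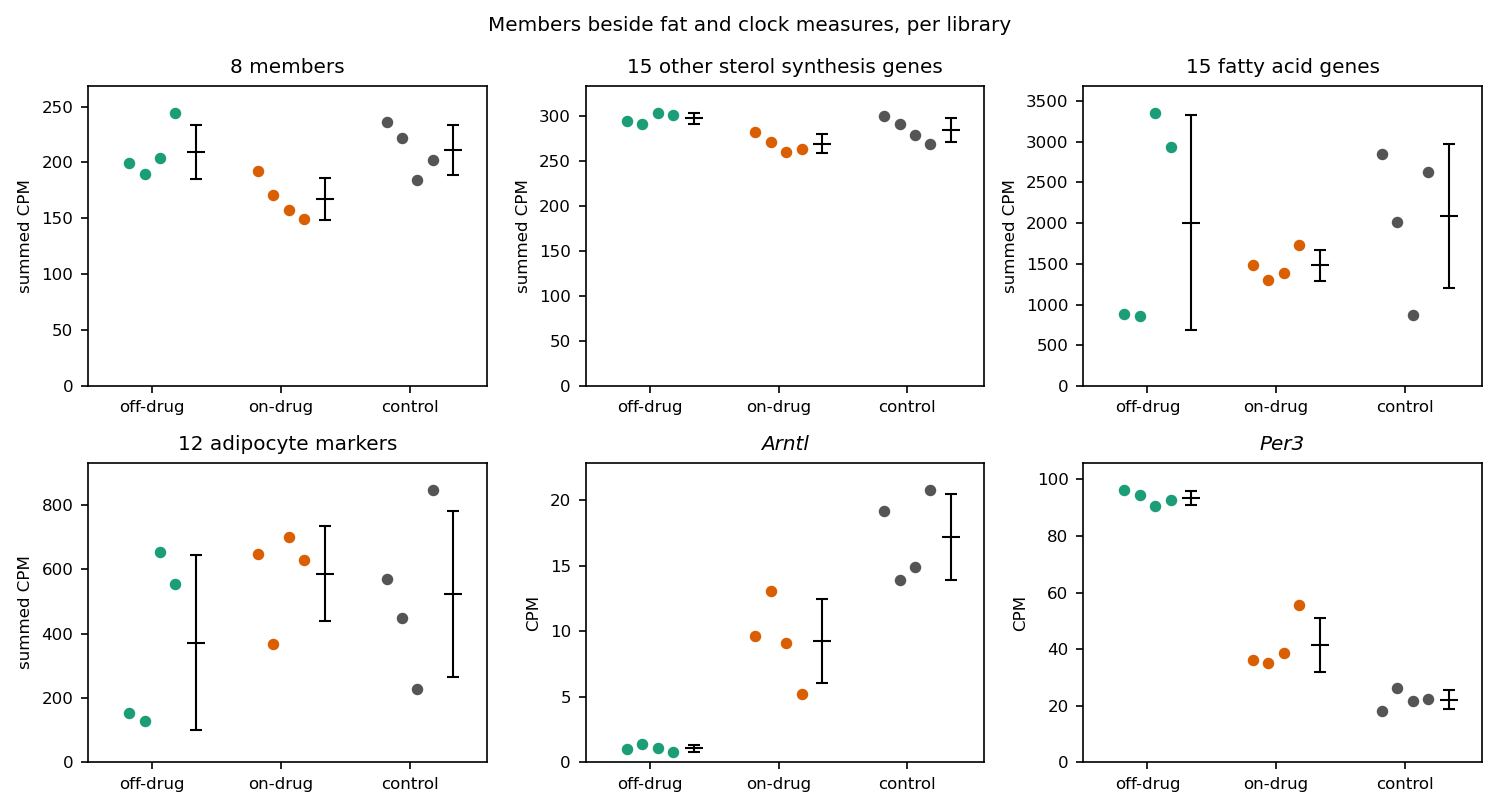
Summed CPM of the 8 members, 15 other sterol synthesis genes, 15 fatty acid genes and 12 adipocyte markers, and CPM of Arntl and Per3 (y axes, from 0), in every library of the off-drug, on-drug and control groups (x axis); bars are means and whiskers SDs of 4 libraries. The member sum is 149 to 192 CPM on drug, against 184 to 236 CPM in controls, and Arntl and Per3 differ in steps over the 3 groups.

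Clock genes, which oscillate over the day, differed between the groups, and the hour of collection is not in the labels. Arntl, which encodes the clock activator BMAL1, had 1.09 ± 0.26 CPM off drug, 9.25 ± 3.22 CPM on drug and 17.2 ± 3.31 CPM in controls (SD, n = 4 each). Per3, a clock repressor, had 93.4 ± 2.51 CPM off drug, 41.4 ± 9.48 CPM on drug and 22.1 ± 3.44 CPM in controls, and Dbp, a clock output factor, had 188 ± 18.6 CPM off drug, 109 ± 35.7 CPM on drug and 46.8 ± 10.2 CPM in controls. Against control 10 of 18 clock genes rose and 5 fell off drug, and 9 rose and 3 fell on drug, while 8 were higher and 5 lower off drug than on drug. The on-drug group lay between the other groups for these 3 clock genes, whereas for Cyp51 and Msmo1 its mean lay below both. Sterol synthesis genes are known to vary over the day in mouse liver, and the part of collection time in the values was not tested.

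Cell type markers were read beside these values. Over all genes edgeR called 7.07% on drug and 12% off drug, each against control. Of the 8 smooth muscle markers summed above, edgeR called 2 higher on drug and 3 higher off drug against control, and 0 lower. In the same comparisons limma-voom called 4 higher on drug, and DESeq2 called 3 higher and 2 lower off drug. Summed fibroblast markers were 3569 to 3980 CPM off drug, 4586 to 5030 CPM on drug and 3725 to 4234 CPM in controls, and of 8 genes 2 rose on drug and 2 fell off drug against control. The on-drug sum rests on Col1a1, a collagen gene, with a mean of 1675 CPM on drug against 930.1 CPM in controls, while Dcn, the most abundant marker over the groups, had 1664 CPM on drug against 1767 CPM in controls and was not called. Summed macrophage markers were 456 to 503 CPM off drug, 619.6 to 676 CPM on drug and 531 to 631 CPM in controls, and of 10 genes 3 rose on drug and 5 fell off drug. Summed endothelial markers were 631 to 807 CPM off drug, 835 to 966 CPM on drug and 661 to 759 CPM in controls, and of 8 genes 2 rose on drug and 1 fell off drug. Summed erythroid markers were 2064 to 4835 CPM off drug, 3908 to 6037 CPM on drug and 4956 to 20626 CPM in controls, and 7 of 8 fell off drug. Schwann cell markers summed to 155 to 170 CPM off drug, 168 to 193 CPM on drug and 145 to 168 CPM in controls, and 1 of 8 rose on drug, Pmp22, which made up most of the sum (165 CPM on drug against 138 CPM in controls). Of the 8 Schwann cell markers 6 had a negative fitted difference on drug against control, with a median of -0.27. Skeletal muscle markers summed to 7.5 to 19.7 CPM off drug, 8.26 to 10.3 CPM on drug and 5.42 to 7.21 CPM in controls, and 2 of 8 rose in each drug group. Lymphocyte markers summed to 7.88 to 12.6 CPM off drug, 5.05 to 20.6 CPM on drug and 3.69 to 7.65 CPM in controls, with 0 called in edgeR; 0 and 3 had an unadjusted p below 0.05 off and on drug against control, where DESeq2 called 0 and 1 and limma-voom 0. No marker of these lists was at 0 in a whole group, and the part of cell makeup in the members' values was not tested.

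The genes most like the members were sought among the 14739 tested genes outside all lists whose log2 CPM averaged 1 or more, by Pearson's r between log2 CPM and the mean z-score of the 8 members over the 12 libraries. The 6 highest with a gene name, predicted models left out, were Kdm1b (0.92), a histone demethylase gene, Ercc8 (0.91), a DNA repair gene, Rgs7 (0.90), a regulator of G protein signalling, Exosc8 (0.90), an RNA exosome subunit gene, Hmgxb4 (0.90), which encodes an HMG-box protein, and Stac (0.87). The libraries share their group and their depth, so these values are a description, with no test. Stac averaged 3.63 ± 0.22 CPM off drug, 1.93 ± 0.50 CPM on drug and 4.20 ± 1.44 CPM in controls (SD, n = 4 each).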

How the data were processed

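The deposited count files hold whole-number counts of reads per gene, made by the authors with featureCounts 1.4.6-p3, the GENCODE M13 mouse annotation and an alignment index of STAR 2.5.3a, per the file headers. The submitters' processing notes name GRCm38. The options in the headers counted multi-mapping and overlapping reads for each gene, ignored duplicates and set no strand. A deposited table of the authors gives log2 values (counts over size factors, plus 1, on the log2 scale, checked against the counts); it supplied only gene symbols and coordinates.

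Counts were fitted in R 4.3.3 with edgeR 4.0.16 (filterByExpr with minimum count 10 and minimum total 15, TMM, robust quasi-likelihood, 1 model over 12 libraries and 3 groups, two-sided contrasts, Benjamini-Hochberg over 24660 genes, threshold 0.05). Errors beside log2 fold changes are SEs. RPKM used the exonic length in the count files. Other settings were DESeq2 1.42.0, its size factors in edgeR, no composition factors, no filter, CPM of at least 1 in 4 libraries, limma-voom (limma 3.58.1), the 2 compared groups alone, replicate number as a block, an adipocyte score as covariate, and each library left out. The edgeR fit was tested on simulated data for on drug against control, over 24660 genes: it recovered 62% of 100 genes changed by 1 on the log2 scale and 34% of 100 changed by 0.5, with 6.80% false among its calls. Each library is 1 of 4 samples per group. Near-identical copies were transcripts of at least 95% identity over at least 100 bases in a GRCm38 transcript set; promoters came from RefSeq.

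The members and gene lists were chosen with earlier results of these data known. Named genes are all members, up to 4 called genes of each pathway list in each comparison by smallest adjusted p, the most abundant markers of a cell type, Srebf1, Srebf2, Arntl, Dbp and Per3, and the 6 genes most like the members. Fasn and Scd1 were named after their values were seen. Of the listed genes Spring1 matched no row and Npc1l1 did not pass the filter. Some genes of these pathways are not reported here and are in none of the lists.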

Additional observations from a re-analysis of the deposited data

Results flagged for a closer look

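In 3 of 24 groups checked (8 members in 3 groups of 4), 1 library stood apart from the others by a gap above Dixon's 95% critical value, which chance alone exceeds in about 1 group in 20. The highest off-drug value of Mvk, 18.2 CPM in replicate 1, stood above 14.1 to 14.4 CPM in the other 3, and without that library both off-drug calls of Mvk were lost. The highest off-drug value of Msmo1, 35.3 CPM in replicate 4, stood above 29.2 to 30 CPM. The highest on-drug value of Msmo1, 26.6 CPM in replicate 1, stood above 17.5 to 18.2 CPM. These libraries are the shallowest of their group for Mvk (54607008 counts) and the deepest of their groups for Msmo1 (101574049 and 109423243 counts), and the part of depth was not tested.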

How the results depend on the processing

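Each result was recomputed under 21 other settings, 12 of them leaving out 1 library. The count of members called lower on drug against control was 2, and became 1 without a filter, 4 under DESeq2, and 1 to 4 when libraries were left out. The count called higher off drug against control was 1, and 0 to 1 when libraries were left out (0 without off-drug replicate 1, control replicate 3 or control replicate 4). The count called higher off drug against on drug was 3, became 5 under limma-voom, and was 1 to 4 when libraries were left out (1 without on-drug replicate 4). Of the 15 other sterol synthesis genes, the 0 called higher off drug against control became 1 under DESeq2, the 2 groups alone, the replicate block and the adipocyte covariate, and 0 to 2 with a library left out. Their 2 called higher off drug against on drug became 4 without a filter, with the 2 groups alone and with the replicate block, 5 under DESeq2 and limma-voom, and 0 to 5 with a library left out (0 without off-drug replicate 3), and their 0 lower on drug against control became 1 with the adipocyte covariate. All genes called on drug against control, 1743, became 2845 under DESeq2, 1147 with the 2 groups alone and 803 to 2290 with a library left out. The cause of these shifts was not tested.

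Signs turned only for fitted log2 differences near 0 that were not called: Mvk on drug against control (0.0036 without composition factors, -0.11 to 0.054 with a library left out), Hmgcs1 off drug against control (0.011 and -0.15 to 0.045), Sqle off drug against control (0.044 and -0.10 to 0.038), Insig1 off drug against control (-0.0014 under limma-voom, -0.017 with the replicate block, -0.17 to 0.16) and Insig1 off drug against on drug (-0.052 without off-drug replicate 4, the lowest value, up to 0.27).

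Same-numbered libraries did not deviate together over the tested genes (correlations of -0.075 to 0.062 after removing group means). The labels do not say what the numbers stand for, so these correlations cannot settle whether the samples were paired. With the replicate block the members called were 2 lower on drug against control and 1 higher off drug against control, as without it, and 4 in place of 3 higher off drug against on drug, with Sqle gained. Every member had at least 204 counts in every library, so the spread between mice sets the precision, with SEs of up to 0.26 on the log2 scale (Idi1).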
